A study of Medicago sativa with 9 samples.

Results

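The transcripts described here are 132 long non-coding RNAs (lncRNAs) that were listed with reads in every leaf library of alfalfa sprayed with selenite at the higher dose and at 0 in every other library. They were chosen from 64684 listed transcripts by their own values: at least 5 estimated reads in each of high Se 1, 2 and 3, and 0 in all of the 3 control and 3 low Se libraries. An estimated read is the deposited mean coverage multiplied by transcript length and divided by the read length, which was inferred from the table. Because the rule used the values of all 9 libraries, levels in high Se against the other groups are a description and carry no test.

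The plants were Medicago sativa, cultivar Kangsai, grown in a field, and leaf RNA was taken from 3 groups of 3 libraries each. Treatment began at a height of 20 cm and consisted of 3 sprays, 1 every 7 days. The low Se group received 100 mg/L and the high Se group 500 mg/L; what the control group was sprayed with is not stated in the labels, and the series description speaks of 3 selenite concentrations. Whether a group's 3 libraries stem from different plants is not stated; the p-values given rest on the spread among these libraries, which may be technical. No marker of leaf cells could be checked, since the table holds predicted lncRNAs only.

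An lncRNA is a long transcript with no predicted protein product. In plants such RNAs are known to act as decoys for microRNAs, to guide silencing of chromatin, and, when transcribed antisense to a gene, to modulate that gene; most have no known role. Selenite enters plant cells largely through phosphate transporters and is then assimilated through the sulfur pathway, and an excess is toxic because selenium takes the place of sulfur in proteins. The function of the 132 transcripts could not be looked up here, and the genes that host some of them carry only assembly identifiers: 0 of the 14400 host gene names in the table matched the gene table at hand.

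The libraries differed in depth and in likeness, and both bear on a rule built on zeros. Aligned sequence, computed as coverage over FPKM, came to between 1.44 and 2.97 gigabases a library, and to 6.77, 6.44 and 7.54 gigabases summed over the control, low Se and high Se groups. High Se libraries had 33064, 36455 and 35759 transcripts above 0, control libraries 34512, 29508 and 26121, and low Se libraries 30877, 33443 and 28094. Pearson's r of log2(FPKM + 0.1), taken across transcripts and so over points that are no replicates, was 0.39 to 0.46 among the high Se libraries. Control 1 stood apart from its group, with r of 0.26 to control 2 and 0.26 to control 3 against 0.27 to 0.30 with high Se libraries. Low Se 1 was likewise no closer to its group, with r of 0.30 to low Se 2 and 0.31 to low Se 3. Its r with high Se libraries was 0.29 to 0.31. The other pairs within a group, control 2 with control 3 and low Se 2 with low Se 3, had r of 0.39 and 0.44. The part of depth and of these libraries in the results below was tested only as far as the values given with them.

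The 132 transcripts were a small and mostly weak set. Only 1.10% of the 12006 transcripts with at least 5 estimated reads in each high Se library were at 0 in the other 6, whereas 49.96% were above 0 in all 9. The lowest of the 3 high Se values had a median of 8.23 estimated reads over the set, with quartiles of 6 and 14; it was below 10 in 84 transcripts, at least 20 in 15 and at least 100 in 4. Mean FPKM over the high Se libraries ran from 0.616 to 43.5 with a median of 2.62, and 9 transcripts reached 10 FPKM. Together the set took 3551, 4239 and 5673 estimated reads in high Se 1, 2 and 3. Reads were concentrated in few members: the 3 with most reads held 24.1% of them and the 10 with most held 46.5%.

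**Figure D1:**
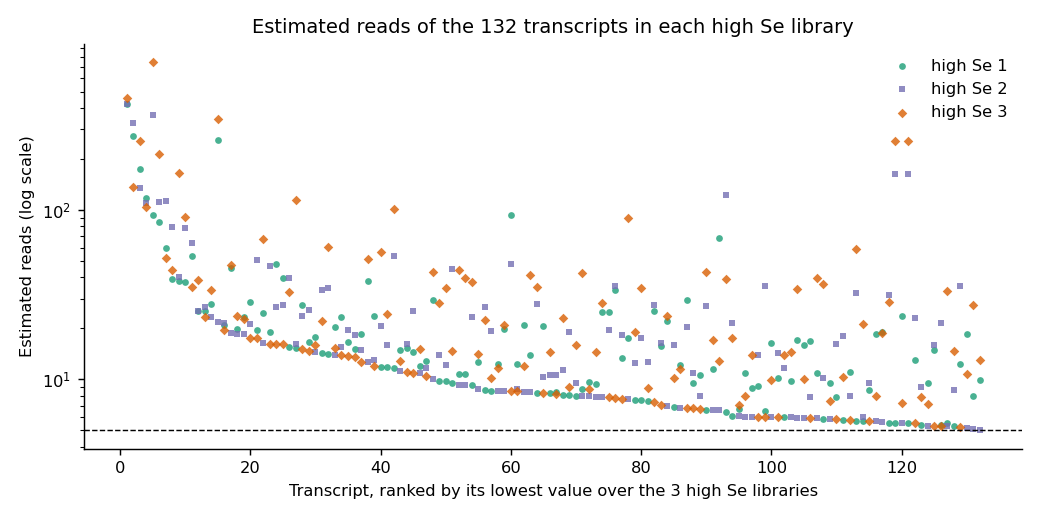
Estimated reads (log axis) of each of the 132 transcripts in the 3 high Se libraries, ordered by the lowest of the 3 values; the dashed line is the minimum of 5. All values in the other 6 libraries are 0 and are not drawn; 84 of the transcripts have a lowest value below 10.

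Members varied among the high Se libraries by more than their shared label might convey. The ratio of the highest to the lowest FPKM over the 3 libraries had a median of 2.56 and was below 2 in 40 transcripts, at least 5 in 27 and at least 10 in 7. High Se 2 held the lowest FPKM of the 3 for 66 members and the highest for 23, while high Se 1 held the highest for 59. High Se 2 was also the deepest library, so that the minimum of 5 reads stood for 0.680 FPKM there at the median length of 348.5 bases, against 0.977 FPKM in high Se 1 and 0.812 in high Se 3.

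The member with the most reads in its lowest library and the member with the highest mean FPKM were intergenic, as were 102 of the 132. The antisense MSTRG.7326.1, given below, had a mean of 22.7 FPKM, above the 22.0 of MSTRG.75431.2. The spliced MSTRG.75431.2 (chromosome 4.2, 49300766 to 49302082, plus strand, 2 exons, 1132 bases) had 423, 422 and 458 estimated reads in high Se 1, 2 and 3, or 25.5, 17.7 and 22.9 FPKM. Its 3 FPKM values lay within a factor of 1.44, and it was the highest of the set by its lowest number of estimated reads. By its lowest FPKM, 17.7, it was below MSTRG.10405.1 (18.8) and MSTRG.7326.1 (18.6). MSTRG.86040.1 (chromosome 4.4, 42325466 to 42325969, 1 exon, no strand) had the highest mean, 43.5 ± 36.3 FPKM (SD, n = 3), made of 12.7, 34.3 and 83.4 FPKM. High Se 3 thus carried most of that mean. MSTRG.10405.1 (chromosome 1.1, 75834544 to 75834823, 280 bases) had 20.6, 18.8 and 43.2 FPKM, again highest in high Se 3.

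Some long single-exon members were among the 10 with the highest minimum of estimated reads. Length alone did not place them there, as another of 1275 bases had 6.45 estimated reads in high Se 1. MSTRG.116556.1 (chromosome 6.3, 84183227 to 84184473, 1247 bases) had 274, 325 and 137 estimated reads and 14.95, 12.4 and 6.23 FPKM. MSTRG.144191.1 (chromosome 8.2, 4137111 to 4138395, 1285 bases) had 175, 135 and 254 estimated reads and 9.25, 4.98 and 11.2 FPKM. High Se 3 was the lowest library for the first and the highest for the second, so no single library led both. MSTRG.6190.1 (chromosome 1.1, 6373123 to 6375132, plus strand), at 2010 bases the longest of the 132, had 2.02, 2.68 and 1.46 FPKM. The remaining 3 of the 10 members with the highest minimum were MSTRG.86293.1 (9.78, 13.7 and 9.10 FPKM), MSTRG.93120.1 (5.48, 4.04 and 19.8 FPKM) and MSTRG.111206.1 (7.32, 10.6 and 14.6 FPKM). All 3 are single-exon intergenic transcripts of 274 to 470 bases without strand. Over all 102 intergenic members, mean FPKM had a median of 2.62 and 38 had at least 10 reads in each high Se library.

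Antisense members are transcribed from the strand opposite to an annotated gene. There were 5 of them, with mean FPKM from 3.93 to 22.7 and a median of 4.76, the highest median of the 5 classes. MSTRG.7326.1 lies opposite MS.gene063265 (chromosome 1.1, 26140924 to 26231671, minus strand) and had 118, 110 and 105 estimated reads, or 28.5, 18.6 and 21.0 FPKM. Its 2 exons hold 282 bases of a span of 90748 bases, and its junction was not checked. MSTRG.56839.1, antisense to MS.gene22060 (chromosome 3.3, 40120469 to 40133549), had 4.49, 7.38 and 5.71 FPKM. MSTRG.26680.1, antisense to MS.gene71568 (chromosome 1.4, 81608523 to 81612675), was less even, with 6.09, 1.40 and 6.78 FPKM.

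Members that share sense sequence with a gene numbered 7, all below 10 FPKM on average. Of the 4 sense-overlapping members, MSTRG.114698.1 in MS.gene07989 (chromosome 6.3, 32239898 to 32450234) had 8.72, 5.12 and 8.81 FPKM, with 217 bases in a span of 210337. MSTRG.148021.2 in MS.gene82025 had 1.75, 0.419 and 2.14 FPKM. MSTRG.52599.1 in MS.gene049588 had the most even values of the whole set, 2.14, 2.51 and 2.12 FPKM, at 7.49 to 12.6 estimated reads. Each of the 3 members that share a splice junction with an annotated gene was lowest in high Se 2. MSTRG.70336.1 (MS.gene72563, 3 exons) had 4.40, 1.26 and 3.83 FPKM, MSTRG.92597.2 (MS.gene40539, 3 exons) had 2.06, 1.51 and 12.8, and MSTRG.112856.2 (MS.gene69011) had 3.35, 1.01 and 2.95. The only other member with 3 exons, the intergenic MSTRG.1045.1 on scaffold 23412, had 29.3, 20.5 and 6.80 estimated reads.

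Intronic members, which lie within an intron of a gene, numbered 18 and stayed low. Their mean FPKM ran from 1.22 to 4.82 with a median of 2.12, and 3 had at least 10 reads in each high Se library. These were MSTRG.142379.1 in MS.gene77796 (4.97, 1.88 and 2.07 FPKM), MSTRG.121676.1 in MS.gene94770 (1.77, 1.67 and 3.05 FPKM) and MSTRG.125122.1 in MS.gene014085 (1.58, 1.15 and 0.935 FPKM). Of the 18, 17 had a single exon and no strand. The 30 members with a host gene named 30 different hosts. Only 15 of the 30 had another listed transcript of the same host. For 10 of those 15, such a transcript was above 0 in a control library.

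The same rule was applied to other sets of 3 libraries, as counts with no test. It found 54 transcripts above the minimum in the 3 low Se libraries alone and 52 in the 3 control libraries alone. The other 81 sets, which mix libraries of different groups, gave 4 to 86 transcripts with a median of 22. High Se therefore had the highest count of the 84 sets of 3. The highest mixed count, 86, came from control 1 with high Se 2 and high Se 3, the next, 65, from control 1 with high Se 1 and high Se 2, and mixed sets with 2 high Se libraries had a median of 37 against 18 with 1 and 21.5 with none. Both other labelled groups exceeded the median mixed set, but each was below the 64 of control 1, low Se 2 and low Se 3.

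**Figure D2:**
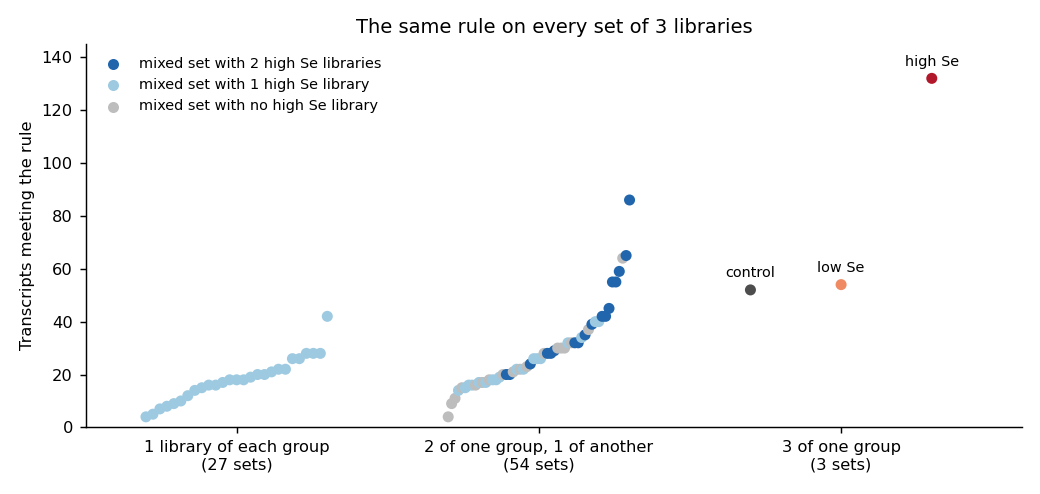
Number of transcripts (vertical axis) with at least 5 estimated reads in each of 3 libraries and 0 in the other 6, 1 point per set of 3 libraries, by the make-up of the set. The high Se set has 132, the highest mixed set 86, low Se 54 and control 52.

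The high Se group had more aligned sequence than the other groups and more transcripts above the minimum; the part of depth in its count was not tested beyond the values that follow. Control 3, low Se 2 and high Se 2, the deepest set, together had 8.40 gigabases, more than the 7.54 of the high Se group, and gave 16 transcripts. The next deepest sets gave more. Control 1, control 3 and high Se 2 had 8.31 gigabases and gave 22. Control 3 with high Se 2 and 3 had 8.25 and gave 45. Control 1, low Se 2 and high Se 2 had 8.18 and gave 42. Low Se 2 with high Se 2 and 3 had 8.11 and gave 55, and control 1 with high Se 2 and 3 had 8.02 and gave 86. As a share of the transcripts with at least 5 reads in all 3 libraries of the set, the counts were 1.10% of 12006 for high Se, 0.616% of 8765 for low Se and 0.646% of 8053 for control, and 0.0525% to 0.718% for the mixed sets. After reads were scaled to the library with the fewest aligned bases, which also makes the minimum stricter, high Se had 60, low Se 38 and control 34, with a highest mixed count of 38. With at least 1 FPKM as the minimum, the counts were 110, 59 and 56, with a highest mixed count of 73. Leaving out control 1 gave 212 for high Se and a highest mixed count of 99. Leaving out 1 of high Se 1, 2 or 3 gave 570, 363 or 411 transcripts, since the rule then asked for reads in 2 libraries only.

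The count was also highest in high Se at stricter minimums. Raising the minimum to 20 reads left 15 transcripts in high Se, 11 in low Se, 6 in control and at most 11 in a mixed set. At 50 reads 7 high Se transcripts remained, against 0 in low Se, 0 in control and at most 3 in a mixed set, and at 100 reads 4 remained, against at most 2 in a mixed set. Those 4 were MSTRG.75431.2, MSTRG.116556.1, MSTRG.144191.1 and MSTRG.7326.1.

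**Figure D3:**
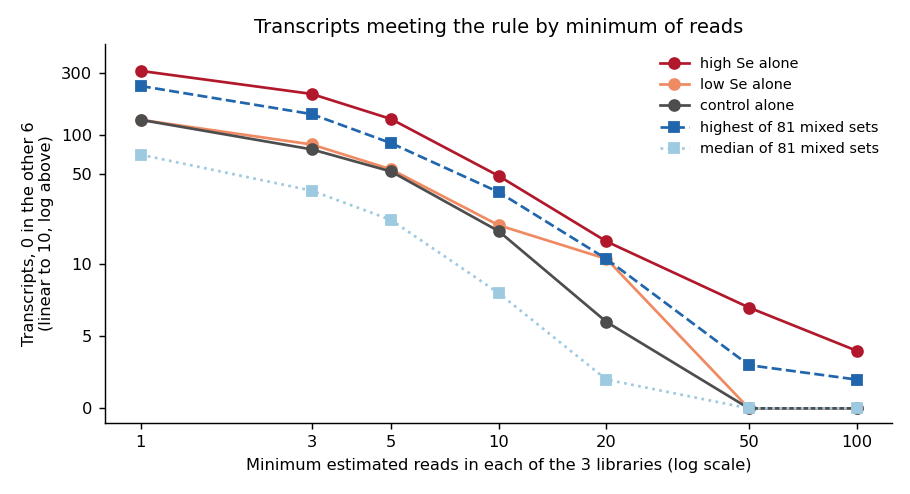
Transcripts at 0 in the other 6 libraries (vertical axis, linear to 10 and log above) against the minimum of estimated reads asked for in each of 3 libraries (log axis), for the 3 labelled groups and for the highest and the median of 81 mixed sets. The high Se line lies above the other 4 at each of the 7 minimums, from 310 transcripts at 1 read to 4 at 100.

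Values changed gradually across the minimum of 5. The 3 members just inside it were MSTRG.148773.1, MSTRG.77169.1 and MSTRG.1008.1, whose lowest high Se values were 5.02, 5.06 and 5.16 reads. Just outside were MSTRG.105738.1, MSTRG.44781.1 and MSTRG.99492.1, with 4.99, 4.90 and 4.89 reads and 0 in the other 6 libraries. In all, 35 members had a lowest value below 6 reads, and 29 transcripts at 0 elsewhere had a lowest value from 4 to below 5.

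The edge at 0 was similarly crowded. A further 299 transcripts with at least 5 reads in each high Se library were above 0 in exactly 1 of the other 6 libraries. That library was control 1 for 80 of them, low Se 2 for 59, low Se 1 for 58, control 2 for 44, low Se 3 for 42 and control 3 for 16. Control 3 had the fewest transcripts above 0 of all 9 libraries, although it was among the deepest. The non-members most like the set, by the fewest reads summed over the other 6 libraries, were MSTRG.118813.1, MSTRG.75899.2, MSTRG.91700.2, MSTRG.19518.1 and MSTRG.34874.1. Each had 0.206 to 0.601 estimated reads outside high Se, which are fractions of a read, and 5.96 to 14.7 in its lowest high Se library.

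For scale, at its own mean high Se FPKM the median member would have had 91.6 estimated reads summed over the 6 control and low Se libraries. That figure ranged from 35.7 reads for the lowest member to 2335 for MSTRG.75431.2, all listed at 0. A 0 is the listing of that form and does not show that its bases had no reads. A longer form, MSTRG.75431.1, spans all of MSTRG.75431.2 and had 77.2 to 319 estimated reads in each of these 6 libraries. In the library with the fewest aligned bases alone, the median member would have had 9.97 reads. The rule chose the members by both their high Se values and these zeros, so the figures give scale and test nothing. The product of coverage and length came out whole, to within 0.02 bases, for 54.3% of the 396 member values, against 40.3% of the high Se values of the other transcripts with at least 5 reads there.

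In the share of intergenic transcripts, in strand and in length the members lay nearer to the transcripts found by the rule in the other groups than to other transcripts with reads in every high Se library; in antisense and sense-overlapping transcripts they lay nearer to the latter. Intergenic transcripts made up 77.3% of the 132, 79.6% of the 54 low Se transcripts and 86.5% of the 52 control transcripts, against 64.1% of the 11874 other transcripts with at least 5 reads in each high Se library. Transcripts without strand were 75%, 81.5% and 80.8% in the same order, against 49.98%. Median length was 348.5 bases, 386 and 348, against 560 bases. Antisense transcripts were 3.79%, 1.85% and 0% (5, 1 and 0 transcripts), against 3.23%. Sense-overlapping transcripts were 3.03%, 0% and 0% (4, 0 and 0 transcripts), against 4.68%. Of all 64684 listed transcripts, 69.3% were intergenic, 71.1% had no strand, 1.88% were antisense and 2.52% sense-overlapping, and their median length was 313 bases. In strand and length the members were thus also close to the listed transcripts as a whole. No test was made of these shares.

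**Figure D4:**
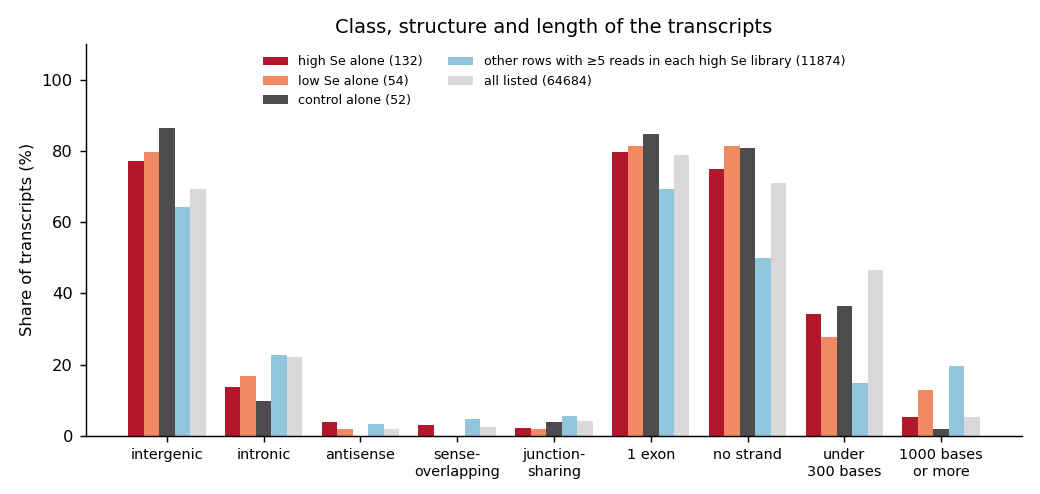
Share (%) of transcripts by class, exon number, strand and length, for the transcripts listed in 1 group alone, for other transcripts with at least 5 estimated reads in each high Se library, and for all listed transcripts. The 3 group-specific sets lie between 75% and 81.5% without strand, the other high Se transcripts at 49.98% and all listed transcripts at 71.1%.

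The coding-potential scores gave a similar picture. The median CPC score, deposited by the authors, was 0.0165 for the members, 0.0154 for all listed transcripts and 0.0208 for the other transcripts with at least 5 reads in each high Se library. By structure, 99 members had 1 exon and no strand, 6 had 1 exon with a strand, 24 had 2 exons and 3 had 3 exons. Median mean FPKM was 2.49 for the 99 and 2.73 for the 24.

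The members were scattered over the genome. All 32 chromosomes held at least 1 of them, from 1 to 8 each, and 9 lay on 8 scaffolds. If the digit after the point in a chromosome name is read as a homologous copy, the 4 copies held 32, 30, 34 and 27 members. Chromosome groups 3 and 4 held the most, 21 and 20, or 2.48 and 2.50 per 1000 listed transcripts, and groups 1 and 7 the fewest per listed transcript, 1.43 and 1.49.

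Some members may be copies of each other, which could not be checked without sequence. Pairs of members with the same length, exon number and CPC and CNCI scores, as identical sequences would have, occurred 3 times. A match of this kind with any listed transcript existed for 7 of the 132 members. It existed for 1241 (1.92%) of all 64684 listed transcripts, and the difference was not tested. MSTRG.100045.1 and MSTRG.100046.1 (551 bases each, 10058 bases apart on chromosome 5.3) had 2.40, 4.34 and 1.79 FPKM and 2.36, 4.005 and 1.67 FPKM. MSTRG.114969.1 and MSTRG.114971.1 lie 26149 bases apart on chromosome 6.3, and MSTRG.145171.1 and MSTRG.150059.1 lie on chromosomes 8.2 and 8.3. How reads were divided between the partners of a pair is not known. Counting each pair once leaves 129 transcripts. Another pair, noticed after the values were seen, has unequal scores: MSTRG.113922.1 and MSTRG.113923.1 (981 and 984 bases, chromosome 6.3) had 0.381, 7.92 and 14.8 FPKM and 0.380, 7.85 and 14.7 FPKM. These 2 had the widest spread over the high Se libraries of all members, 38.8-fold and 38.7-fold.

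One member has such a match that is not a member. MSTRG.94680.1 (206 bases, chromosome 5.2) had 2.74, 2.46 and 3.96 FPKM in high Se. The transcript with the same length and scores, MSTRG.5263.1 on scaffold 57642, was listed at 0.412, 0.856 and 0 FPKM in the control libraries, at 0, 1.14 and 2.28 in high Se, and at 0 throughout low Se. The listing at 0 in control thus holds for 1 of the pair and not for the other.

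A listing in high Se alone was at some loci a property of 1 form rather than of the locus. The 132 members came from 132 loci, of which 7 had other listed forms, 13 in all. At 6 of the 7 loci another form was above 0 in control or low Se libraries. At locus MSTRG.75431 the unspliced form MSTRG.75431.1 (2721 bases, same start as the member) had 6.47, 6.91 and 3.98 FPKM in control, 2.74, 2.69 and 1.89 in low Se and 3.66, 6.22 and 3.71 in high Se. It was thus above 0 in all 9 libraries, with overlapping values in control and high Se. In the fit across all transcripts its log2 change was -0.35 ± 0.74 (SE) against control and 0.84 ± 0.74 against low Se, with limma adjusted p of 0.914 and 0.815. The sum of both forms was 6.47, 6.91 and 3.98 FPKM in control, 2.74, 2.69 and 1.89 in low Se and 29.1, 23.9 and 26.6 in high Se, which the spliced form led.

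**Figure D5:**
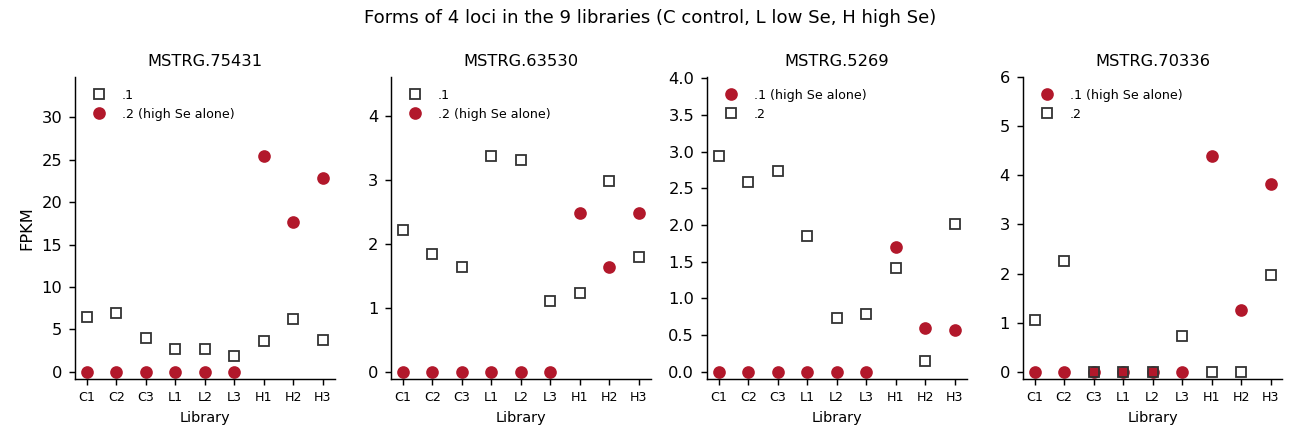
FPKM of the listed forms at 4 loci in the 9 libraries (C control, L low Se, H high Se). Filled circles are the form listed in high Se alone and open squares the other form; MSTRG.75431.1 and MSTRG.63530.1 are above 0 in all 9 libraries.

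At the other loci the member's part of the locus varied. MSTRG.63530.2 had 2.49, 1.64 and 2.48 FPKM in high Se, beside a longer form, MSTRG.63530.1, with 2.22, 1.84 and 1.64 FPKM in control, 3.38, 3.31 and 1.11 in low Se and 1.23, 2.99 and 1.79 in high Se. MSTRG.5269.1 on scaffold 57668 had 1.70, 0.591 and 0.570 FPKM, and its other form, MSTRG.5269.2, ranged over 2.94, 2.59 and 2.74 FPKM in control, 1.86, 0.735 and 0.790 in low Se, and 1.41, 0.145 and 2.02 in high Se. Locus sums of MSTRG.5269 therefore overlapped between control and high Se, at 2.59 to 2.94 and 0.735 to 3.11 FPKM. At MSTRG.70336 the member was the whole of the locus in high Se 1 and 2, with its other form at 1.05, 2.26 and 0 FPKM in control, 0, 0 and 0.725 in low Se and 0, 0 and 1.98 in high Se. At MSTRG.90475 the member had 3.04, 0.859 and 1.45 FPKM in high Se, and its other form had 0.635, 0.215 and 1.40 in control, 0.296, 0 and 0 in low Se and 1.47, 0 and 5.22 in high Se. The 8 forms of MSTRG.114698 summed to 31.5, 21.15 and 33.3 FPKM in control, 2.12, 26.8 and 6.51 in low Se and 31.1, 19.6 and 37.1 in high Se, so that control and high Se overlapped. MSTRG.26680 was the 1 locus of the 7 whose other form was also at 0 in all control and low Se libraries; that form had 2.69 FPKM in high Se 3 and 0 in high Se 1 and 2. None of the 10 other forms that could be tested passed in either comparison with limma, with adjusted p from 0.649 to 1 against control and from 0.620 to 1 against low Se, and none had an unadjusted p below 0.05.

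Transcripts next to the members, which the rule did not use, tended to be high in the same group. Within 5000 bases of a member lay 119 listed transcripts of other loci, none of them a member, beside 63 of the 132. Transcripts that overlap a member are counted among them, and several can be forms of 1 locus. Mean FPKM was higher in high Se than in both other groups for 82 of the 119, or 68.9%, against 35.6% of all other transcripts above 0. It was 32.6% of the 7162 neighbours of the other transcripts with at least 5 reads in each high Se library. Around the transcripts found by the rule in the other groups, the group's own mean was highest for 22 of 45 neighbours (48.9%) in low Se, against 31.0% of all other transcripts above 0, and for 31 of 40 (77.5%) in control, against 33.2%. Whether a member and its neighbour are pieces of 1 RNA was not tested.

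Single neighbours varied widely. On chromosome 2.2, MSTRG.34412.1 lies 476 bases from the member MSTRG.34411.1; its FPKM was 3.21, 0 and 1.28 in control, 0, 1.47 and 1.11 in low Se and 15.3, 15.1 and 19.6 in high Se. Control and low Se overlapped and the 3 high Se values lay above all 6 of the others, but it did not pass in the fit across all transcripts (limma adjusted p = 0.347 against control and 0.369 against low Se). On chromosome 7.4, 5 adjacent transcripts from 79038942 to 79044172 were all at 0 in control and low Se, but of these only the member MSTRG.137929.1 had reads in high Se 1. Of the 87 neighbours that could be tested, 15 had an unadjusted p below 0.05 against control, all higher in high Se, and 23 against low Se, of which 21 were higher, where 9.26% and 7.84% of all 43763 tested transcripts reached that level. The 2 lower ones were MSTRG.10406.1, lying 3513 bases from MSTRG.10405.1, and MSTRG.114701.2, which overlaps MSTRG.114698.1. Against low Se their log2 changes were -4.10 and -5.36 (limma unadjusted p = 0.0189 and 0.0055). Throughout high Se MSTRG.10406.1 was listed at 0, where low Se 1, 2 and 3 reached 3.39, 0.348 and 3.15 FPKM. For MSTRG.114701.2, low Se 1, 2 and 3 reached 2.20, 25.7 and 11.5 FPKM, and high Se at most 0.894. None of the 87 passed after adjustment in either comparison. Of the 87, 20 overlapped a member and 67 did not. Against control, 80.0% of the 20 and 86.6% of the 67 were higher in high Se, where 55.6% of all tested non-members were. Against low Se the shares were 85.0% and 76.1%, where 55.8% of all tested non-members were higher.

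Few members passed a test across all transcripts, and that count is given without further reading because the rule used the same contrasts. Values were fitted as log2(FPKM + 0.1) with limma over all 9 libraries, and calls were made at 0.05 on p-values adjusted by Benjamini-Hochberg. Of the 132 members, 119 passed the filter of a mean of 0.5 FPKM, and 4 were called against control, where 0.0229% of all tested transcripts were called in either direction and 0.0183% as higher in high Se. The same 4, namely MSTRG.75431.2, MSTRG.86040.1, MSTRG.7326.1 and MSTRG.10405.1, were called against low Se, where 0.0206% of all were called in either direction and 0.0183% as higher. The count of 4 fell to 0 in both comparisons without control 2, control 3, low Se 2, low Se 3 or any 1 high Se library, and with the replicate number as a block; in those fits 80 to 123 members had an unadjusted p below 0.05, values that the rule had used.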

How the data were processed

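Leaf RNA of 9 libraries was measured, 3 per group. Per the labels' protocols, ribosomal RNA was removed from total RNA, the rest was fragmented, and dUTP marked the second cDNA strand. The submitters' processing notes name edgeR, StringTie, HISAT2 and Bowtie2 without saying what each did; the genome build is not given in the sources used here. The deposited table gives FPKM (fragments scaled by transcript length and library depth) and, as an unscaled signal, mean coverage per base, per the file headers. Where no coverage was listed for a transcript the authors wrote 0.0001, which was read as 0. Such a 0 belongs to that form and does not show that its bases had no reads. CPC and CNCI scores of coding potential were deposited by the authors. Class names follow the usual meaning of StringTie class codes. All per-sample columns were mapped to samples by title.

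Reads were estimated as coverage × length / 141. The table holds no counts, so no count test and no counting interval is given; the estimates are small and limit precision. Where homologous chromosomes or paralogs share reads, single transcripts are uncertain, as are overlapping transcripts without strand. The members and all lists were chosen with earlier results of these data known. Transcripts are named by rule: the 10 members with the highest minimum of reads, members called by limma, the top 3 of each class other than intergenic, the most exons, the edges of the rule, the likest non-members, and neighbours called by limma (0 were). No locus or host held 2 members. Others named (copies, forms, single neighbours) were chosen after their values were seen.

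All 9 libraries entered 1 fit of log2(FPKM + 0.1) by limma (version 3.58.1, R 4.3.3; prior variance as a trend of mean level) over the 43763 transcripts whose mean reached 0.5 FPKM; Benjamini-Hochberg adjustment ran over all of them. The script was tested on simulated data. Alternatives covered the minimum of reads, the level allowed elsewhere, read length, depth scaling, pseudocount, filter, scaling, variance trend, which samples were fitted, a block for replicate number, and each library left out, with the filter recomputed on the libraries in the fit. Python 3.11.15, NumPy 2.4.6, pandas 2.3.3 and matplotlib 3.10.9 were used.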

Additional observations from a re-analysis of the deposited data

How the results depend on the processing

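The count of 132 transcripts listed in high Se alone became 206, 48 and 15 with a minimum of 3, 10 and 20 reads, 60 with reads scaled to the shallowest library, and 148 to 570 with 1 library left out; it moved by more than 1.5 times without control 1 (212) or high Se 1, 2 or 3 (570, 363 and 411). It was 151 with under 1 read allowed elsewhere, 125 with reads of 150 bases and 110 with at least 1 FPKM. In added alternatives, chosen after seeing the data, high Se exceeded the highest mixed set without control 1 (212 against 99), control 3 (148 against 107) or low Se 1 (190 against 124). The highest mixed set was not computed without control 2, low Se 2 or low Se 3. The members with a listed neighbour, 63 within 5000 bases, were 36 within 1000 and 96 within 20000; the window does not enter the count of members with another form, so no alternative was run for it.

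The calls by limma depended on most settings. Of all transcripts, 10 were called against control and 9 against low Se, and of the members 4 and 4. In the order all against control, all against low Se, members against control, members against low Se, the counts were 36, 22, 10 and 9 with a pseudocount of 1, and 1, 1, 0 and 0 with one of 0.01. They were 49, 23, 4 and 4 without the filter and 2, 1, 0 and 0 with a mean of at least 2 FPKM. They were 6, 0, 4 and 0 without the variance trend and 38, 21, 7 and 6 in fits of the 6 samples compared. Leaving out 1 library gave 1 to 30, 0 to 23, 0 to 4 and 0 to 4, with the highest counts of all transcripts without control 1 (30 against control) and low Se 1 (23 against low Se); without control 2 or 3, low Se 2 or 3, or any high Se library the first was 1 to 4 and the second 0 to 3. Wherever limma called 0 transcripts against low Se (without the trend, or without 1 high Se library), 2753 to 4029 had an unadjusted p below 0.05; wherever it called 0 members, 17 to 123 did. The replicate block gave 4, 2, 0 and 0. The numbers share no known source. Deviations of same-numbered libraries correlated at -0.030 to 0.0015 and those of different-numbered libraries at -0.030 to 0.035. These values show no pairing by number. They cannot exclude it, because the correlation of deviations that a pairing would give is not known. Levels, which are a different measure, correlated at only 0.26 to 0.46 among libraries of 1 group. Median-of-ratios scaling gave 9, 9, 4 and 4. The cause of these changes was not tested. Depth limits single values: the lowest high Se library had under 10 estimated reads for 84 of the 132.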
